A study of Homo sapiens with 12 samples.

Results

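The miR-7 microRNA family was followed through its mature products hsa-miR-7-5p and hsa-miR-7-1-3p, through hsa-miR-3529-3p, which is read from the opposite strand of a miR-7 locus, and through HNRNPK, the gene that hosts the MIR7-1 hairpin. These were 3 of 1520 miRNAs in the count table and 1 of 19659 genes (6 transcripts) in the mRNA table. The 3 miRNAs were chosen because of their difference between DMAG and control libraries, so their values are given as a description without a test. HNRNPK was chosen as the host by its position.

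The cells were labelled HEL, a human erythroleukaemia cell line. The DMAG group had received 40 µg/ml DMAG (a methylated ellagic acid glucoside from Sanguisorba) for 3 days, and the control group is labelled CTL, with no vehicle recorded. Each group had 3 small RNA libraries and 3 RNA-Seq libraries, and the labels do not say whether replicates were separate cultures; each p-value reflects the scatter of these libraries alone, which may be technical. The study's title names inhibited proliferation and megakaryocytic differentiation as its setting.

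MicroRNAs are cut from hairpin precursors, by DROSHA with DGCR8 in the nucleus and then by DICER1 in the cytoplasm, and guide Argonaute proteins to messenger RNAs that match their seed, the bases near the 5′ end. In humans miR-7-5p is encoded by hairpins on several chromosomes, and MIR7-1 lies in an intron of HNRNPK, so the host's transcription and the hairpin's processing both bear on its level. In mouse brain and in cultured cells, the long noncoding RNA Cyrano (OIP5-AS1) directs destruction of miR-7, while the circular RNA CDR1-AS binds it at many sites. HNRNPK encodes an abundant RNA- and DNA-binding protein with KH domains.

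The mature sequences are shown because they set which counts can be told apart; they are from RefSeq (GRCh38.p14), written 5′ to 3′ with the seed, bases 2 to 8, in capitals.
hsa-miR-7-5p: uGGAAGACuagugauuuuguuguu
hsa-miR-3529-3p: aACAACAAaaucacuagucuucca
hsa-miR-7-1-3p: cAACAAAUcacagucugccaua
hsa-miR-7-2-3p: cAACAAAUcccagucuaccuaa

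hsa-miR-7-5p and hsa-miR-3529-3p were exact reverse complements over 24 of 24 bases. No other miRNA with a sequence in the table carried the seed of hsa-miR-7-5p. The 3p arms of MIR7-1 and MIR7-2 shared their seed and differed at 4 of 22 positions, counted from 1 at the 5′ end, as A10C, G17A, A20U and U21A from hsa-miR-7-1-3p to hsa-miR-7-2-3p.

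The 5p arm is the same in each hairpin, so its counts do not name their source. The hairpins of MIR7-2 and MIR7-3 are shown with this arm in capitals.
MIR7-2: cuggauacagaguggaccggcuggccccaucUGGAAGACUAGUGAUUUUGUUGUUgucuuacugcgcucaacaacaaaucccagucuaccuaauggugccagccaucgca
MIR7-3: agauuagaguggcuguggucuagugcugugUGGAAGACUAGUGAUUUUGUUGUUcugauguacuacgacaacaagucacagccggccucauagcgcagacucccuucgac

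In GRCh38.p14 HNRNPK spans chr9:83968083-83980615 on the minus strand, and MIR7-1 lies within it on the same strand at chr9:83969748-83969857, its near end 10758 bases downstream of the HNRNPK start. The mature hsa-miR-7-5p of this hairpin is at chr9:83969811-83969834 and hsa-miR-7-1-3p at chr9:83969771-83969792. MIR7-2 is at chr15:88611825-88611934 on the plus strand, and MIR3529 overlaps it on the minus strand at chr15:88611847-88611924. MIR7-3 is at chr19:4770670-4770779 on the plus strand.

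hsa-miR-7-5p was lower in DMAG libraries, and it was among the more abundant miRNAs in both groups. It had 36458, 33782 and 40938 counts in the DMAG libraries, against 114029, 76648 and 149402 counts in the control libraries. The library totals were 4867089 to 5508016 counts with DMAG and 4303596 to 6003077 counts in controls. On the scale of CPM (counts relative to a library total scaled by edgeR's TMM method), the level was 7267, 7398 and 8471 with DMAG, against 22451, 15762 and 24346 in controls. All DMAG libraries lay below all control libraries, and control replicate 2 was the lowest of its group. The means were 7712 ± 661 CPM with DMAG and 20853 ± 4510 CPM in controls (SD, n = 3 each, as for all means that follow), a 2.70-fold lower level (log2 change -1.44, SE 0.135). By mean level it ranked 32 with DMAG and 11 in controls. The SE given for miRNAs was derived from the edgeR test statistic, which also draws on the spread of other miRNAs. For hsa-miR-7-5p this SE was 0.0677 with no low-count filter. The within-group SD of its log2 level was 0.251.

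Of the 87 tested miRNAs with a mean of at least 1000 CPM, 1 had a lower log2 change than hsa-miR-7-5p. This was its reverse complement hsa-miR-3529-3p, with nearly the same counts, so it is uncertain as a separate miRNA. Of all 583 tested, 9 had a lower log2 change, hsa-miR-3529-3p among them. hsa-miR-7-5p was chosen for this same difference, so nothing is read from its place in either order. At an adjusted p under 0.05 (edgeR quasi-likelihood test), 45.3% of the tested miRNAs were called, 125 higher and 139 lower with DMAG; this count includes the members and nothing is read from it for them. That split depends on scaling, with 79 higher and 207 lower by column totals alone and 139 higher and 106 lower by DESeq2's size factors.

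hsa-miR-3529-3p had nearly the counts of hsa-miR-7-5p in every library. There were 35611, 32957 and 39821 counts with DMAG, against 113124, 76213 and 148149 counts in controls. This was 97.7%, 97.6% and 97.3% of the hsa-miR-7-5p count with DMAG and 99.2%, 99.4% and 99.2% in controls. The groups did not overlap in this percentage. The excess of hsa-miR-7-5p over hsa-miR-3529-3p was 847, 825 and 1117 counts with DMAG and 905, 435 and 1253 counts in controls, and here the groups overlapped. Its level was 7519 ± 628 CPM with DMAG and 20695 ± 4450 CPM in controls (log2 change -1.46, SE 0.134). The value of hsa-miR-3529-3p is therefore uncertain as a separate measurement. Whether the authors' counting used strand is not given in the sources used here.

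**Figure D1:**
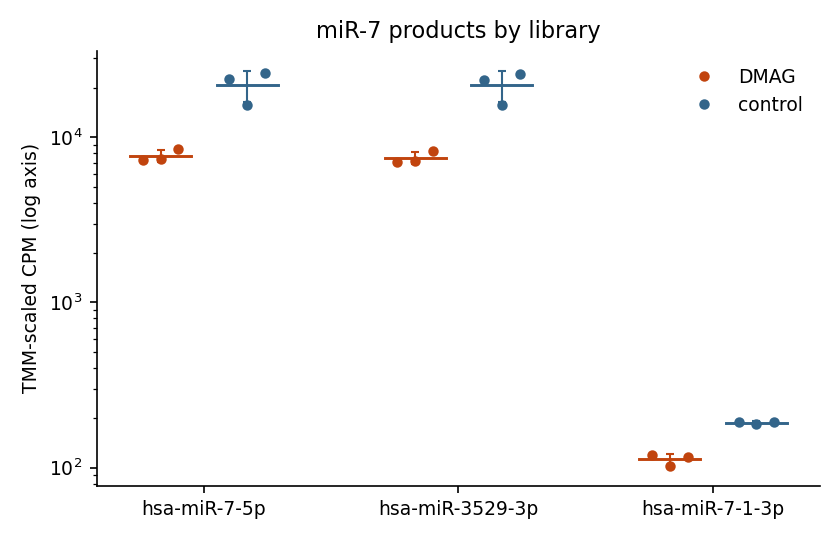
TMM-scaled CPM (log axis) of each miR-7 product in each library, DMAG left of control, with points for libraries, lines for means and bars for SD (n = 3). The DMAG libraries lie below the control libraries for each product, and hsa-miR-7-5p and hsa-miR-3529-3p have nearly the same levels.

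Near-equal counts of opposite sequences occurred elsewhere in the table. Among the 1253 miRNAs with a RefSeq sequence, 57 pairs shared a reverse-complement run of at least 18 bases. With at least 100 counts in the more abundant miRNA and a run of at least 20 bases there were 21 pairs, and in 13 of them, the miR-7 pair included, the counts summed over the libraries were within 5%. hsa-miR-103a-3p had 714568 counts and its partner hsa-miR-103b 705150. hsa-miR-423-5p had 79788 counts and its partner hsa-miR-3184-3p 79785. hsa-miR-548bc and hsa-miR-548f-5p had 2243 counts each, and hsa-miR-219a-2-3p and hsa-miR-219b-5p 461 each. In both of these pairs the counts were equal in every library. Other pairs did not follow this, and whether single reads entered both rows was not tested.

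**Figure D2:**
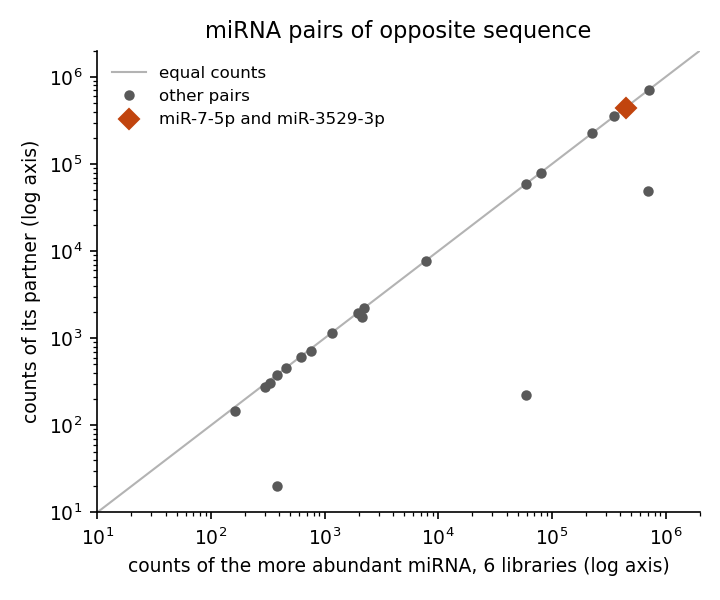
Counts over the 6 libraries of each pair of miRNAs that are reverse complements over at least 20 bases, with at least 100 counts in the more abundant, which is on the x axis with its partner on the y axis (both log axes), with the line of equal counts. The miR-7 pair lies near this line, as do the 12 other plotted pairs within 5% of it.

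hsa-miR-7-1-3p, the other arm of the hairpin in HNRNPK, was also lower with DMAG, by a smaller factor. Unlike the 5p arm, its sequence is not shared with MIR7-2 or MIR7-3. It had 598, 468 and 563 counts with DMAG, against 966, 889 and 1161 counts in controls. Its level was 119, 102 and 116.5 CPM with DMAG, against 190.2, 183 and 189 CPM in controls. The groups did not overlap, with means of 113 ± 8.97 CPM with DMAG and 187 ± 4.0 CPM in controls, 1.66-fold lower (log2 change -0.73, SE 0.0870). By column totals alone the log2 change was -0.93, with a median of all tested miRNAs of -0.28 on that scaling and -0.08 with TMM.

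For every 100 counts of hsa-miR-7-5p there were 1.64, 1.39 and 1.38 counts of hsa-miR-7-1-3p with DMAG, against 0.847, 1.16 and 0.777 in controls. All DMAG libraries lay above all control libraries, and this ratio does not depend on library scaling. The log2 change of the 3p arm minus that of the 5p arm was 0.70. The comparison held 131 other hairpins with both arms tested whose arm names differ only in 5p or 3p. Hairpins with arms named otherwise, such as that of hsa-miR-92a-1-5p, were not compared. Across the 131, the median absolute difference between arms was 0.39, and 34 differed by at least as much as miR-7. Both arms had the same sign in 87 of the 131. Some of these arms are opposite in sequence with near-equal counts, as within miR-3158 and between miR-423 and miR-3184. Such arms are uncertain as separate values, so these counts are too.

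**Figure D3:**
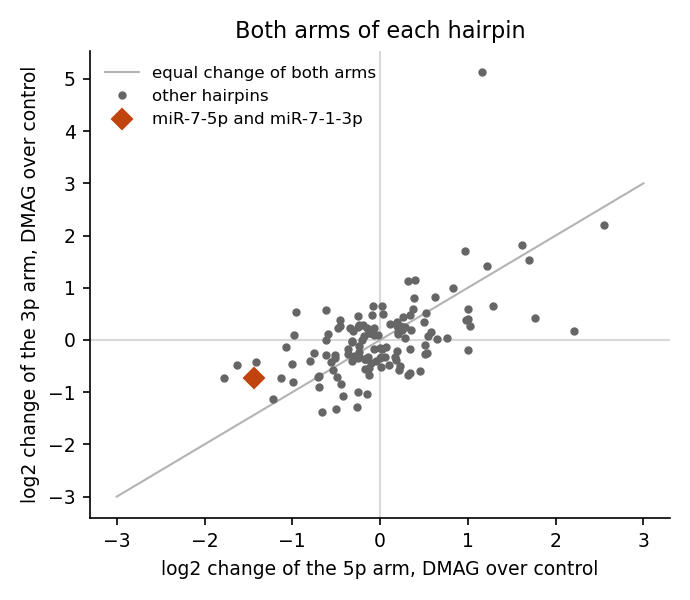
Log2 change, DMAG over control, of the 5p arm (x axis) and 3p arm (y axis) of miR-7 and of each other hairpin compared. Those have both arms tested, under names that differ only in 5p or 3p. The miR-7 point, at -1.44 and -0.73, lies above the line of equal change, within the spread of the other hairpins.

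The arms of MIR7-2 and MIR3529 that no other product shares had at most 2 counts per library. hsa-miR-7-2-3p had 1, 1 and 0 counts with DMAG and 0, 1 and 2 in controls. The 5p arm of MIR3529 had 1, 1 and 0 counts with DMAG and 0, 0 and 2 in controls. These lie under 3 counts, the limit that a count of 0 allows (0.489 to 0.657 CPM per library, counting error only), so no fold is given and a difference was not detectable at this depth. They too are opposite in sequence, over 20 bases, so they are uncertain as separate values. The arm counts are of mature products, so how much each hairpin gave to hsa-miR-7-5p was not measured.

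By the root-mean-square difference of centred log2 levels over the 6 libraries, the 5 nearest of 350 candidate miRNAs to hsa-miR-7-5p, with hsa-miR-3529-3p left out because of its near-equal counts, were hsa-miR-92a-1-5p (0.214), hsa-miR-330-3p (0.246), hsa-let-7c-3p (0.271), hsa-miR-548t-3p (0.280) and hsa-miR-3177-3p (0.284). hsa-miR-7-1-3p, from a miR-7 hairpin itself, stood at 0.393. The nearest of these candidates, hsa-miR-92a-1-5p, was at 107 ± 5.76 CPM with DMAG and 303 ± 9.70 CPM in controls.

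HNRNPK did not differ beyond the spread between libraries. The sum of its transcripts was 220.1, 217 and 209 FPKM (fragment counts per transcript length and library size) with DMAG, against 214, 215 and 222 FPKM in controls. The groups overlapped, with means of 215 ± 5.92 FPKM with DMAG and 217 ± 4.05 FPKM in controls. The log2 change of FPKM + 1 was -0.01 (SE 0.0358, limma adjusted p = 0.79), and the 95% interval of the fold ran from 0.933 to 1.05. In the same fit 48.6% of 10394 genes were called. HNRNPK ranked 188 by mean FPKM with DMAG and 206 in controls. The FPKM measure the mature, spliced host and not the primary transcript of MIR7-1, and the annotation holds 5 HNRNPK pseudogenes whose reads could be shared. In bulk RNA, fewer cells of a type and less RNA per cell cannot be told apart.

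None of the 6 HNRNPK transcripts was called (limma on log2(FPKM + 0.1), where 10.3% of 26969 mRNA transcripts were called, 4.55% higher and 5.7% lower), and 1 had an unadjusted p under 0.05. ENST00000351839, the most abundant, was at 127, 127 and 122 FPKM with DMAG, against 134, 129 and 136 FPKM in controls (log2 change -0.08, limma adjusted p = 0.23). ENST00000376281 was at 59.3, 56.7 and 56.8 FPKM with DMAG, against 48.4, 54.6 and 51.4 FPKM in controls (log2 change 0.16, limma adjusted p = 0.15). Neither pair of groups overlapped, and the differences ran in opposite directions. The shares of all transcripts without overlap, or with an unadjusted p under 0.05, were not counted, so nothing is read from these. ENST00000351839 made up 58.4% of the summed FPKM with DMAG and 61.2% in controls, and ENST00000376281 26.8% with DMAG and 23.7% in controls. The other 4 transcripts had means between 1.26 and 14.6 FPKM with DMAG and between 1.67 and 14.4 FPKM in controls.

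**Figure D4:**
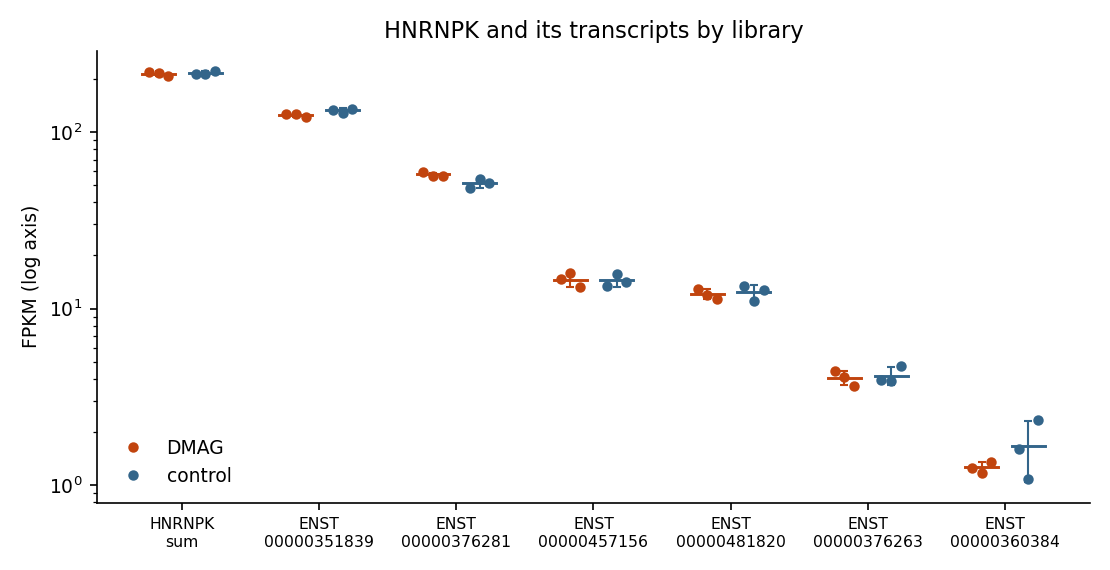
FPKM (log axis) of HNRNPK summed over transcripts and of its 6 transcripts in each library, DMAG left of control, with lines for means and bars for SD (n = 3). The summed levels overlap at 209 to 222 FPKM. The libraries of the most abundant 2 transcripts do not overlap between groups, in opposite directions, but neither transcript was called.

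Of the genes beside HNRNPK, RMI1, which encodes a subunit of a complex that dissolves recombination intermediates, starts on the other strand and its span overlaps that of HNRNPK by 257 bases. It was at 31.2, 28.2 and 28.7 FPKM with DMAG, against 22.1, 23.5 and 21.1 FPKM in controls. These groups did not overlap, and RMI1 was called higher (log2 change 0.39, limma adjusted p = 0.0024). The libraries marked strand, but whether the counting used it is not given, so reads from the overlap may be assigned to either gene. SLC28A3, a nucleoside transporter, was at 0.142 FPKM with DMAG and 0.414 FPKM in controls, and C9orf64 at 0.0311 FPKM with DMAG and listed at 0 in controls; both lay below the level tested. The 5 nearest of 6241 genes to HNRNPK by the same measure of likeness were DDX17 (0.0106), TOP2B (0.0141), SUZ12 (0.0155), NPEPPS (0.0156) and PSMC2 (0.0171).

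The genes that make, bind and degrade miRNAs were lower more often than higher with DMAG. Of 30 listed, 28 were tested, and 11 were called lower, 3 higher and 14 not called. These are 39.3% lower and 10.7% higher, against 26.1% and 22.4% of all genes tested. When single libraries were left out, 8 to 12 were called lower and 3 to 4 higher. With the most abundant transcript per gene, 9 were called lower and 4 higher. The median log2 change of the list was -0.07, against -0.01 for all genes tested. XPO5, which exports hairpin precursors from the nucleus, was at 29.4, 29.6 and 31.7 FPKM with DMAG, against 43.4, 42.4 and 43.0 FPKM in controls (log2 change -0.49, limma adjusted p = 2.7e-04). TENT2 and TENT4B, nucleotidyltransferases that add bases to RNA 3′ ends, had log2 changes of -0.41 and -0.25 (limma adjusted p = 6.1e-04 and 0.0056). DROSHA, DGCR8 and DICER1, the cutting machinery, were called lower by 0.16 to 0.23 on the log2 scale, as was the Argonaute AGO2 (-0.19). The calls of DROSHA, DGCR8, DICER1 and AGO2 were not followed singly under alternative settings. AGO1, AGO3 and PRKRA were among the 14 not called. AGO4 (7.36 FPKM with DMAG and 5.91 in controls) and the Argonaute partners TNRC6B (20.3 FPKM with DMAG and 15.9 in controls) and TNRC6C (6.97 FPKM with DMAG and 5.76 in controls) were called higher. The calls of TENT2 and TNRC6C were lost with the most abundant transcript per gene in place of the gene sum.

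Factors reported to act on miR-7 itself gave mixed values. SRSF1, a splicing factor that promotes cutting of the MIR7-1 transcript, was called lower, at 118.7 ± 1.88 FPKM with DMAG and 143.9 ± 2.82 FPKM in controls (log2 change -0.28, limma adjusted p = 8.8e-04). MSI2 and ELAVL1, which together hold that cutting back, were at 12.8 and 34.5 FPKM with DMAG and 12.1 and 36.1 FPKM in controls (limma adjusted p = 0.21 and 0.13). QKI, another RNA-binding protein of the miR-7 transcript, was at 31.8, 13.1 and 13.0 FPKM with DMAG, against 33.7, 32.5 and 34.8 FPKM in controls, and was not called (limma adjusted p = 0.065). DMAG replicate 1 lay near the controls and apart from the other DMAG libraries; without it the log2 change was -1.30 (adjusted p = 2.1e-04). This split lay in ENST00000361752, at 20.7, 1.06 and 1.05 FPKM with DMAG and 22.5, 21.9 and 22.5 FPKM in controls. ZSWIM8, the ubiquitin ligase subunit used in Cyrano-directed miR-7 decay, was at 9.47 ± 1.60 FPKM with DMAG and 8.46 ± 0.478 FPKM in controls (limma adjusted p = 0.37).

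Of 4 tested OIP5-AS1 transcripts (chr15:41282697-41313338), 1 was called higher, where 12.7% of 2746 annotated lncRNA transcripts were called higher, 3.42% lower and 16.1% in either direction. ENST00000501665.2 was at 5.75, 6.18 and 6.35 FPKM with DMAG, against 3.41, 4.55 and 4.59 FPKM in controls. The groups did not overlap (log2 change of FPKM + 0.1 0.54, SE 0.142, limma adjusted p = 0.042), but the call was lost whichever single library was left out (adjusted p 0.056 to 0.11). It was also lost when libraries were scaled to the same median (adjusted p = 0.19), which put the median log2 change over the tested lncRNA transcripts at -0.04, against 0.20 unscaled. ENST00000561275.5 was at 2.83, 3.01 and 2.95 FPKM with DMAG, against 3.76, 3.81 and 3.91 FPKM in controls (log2 change -0.37, limma adjusted p = 0.058, and 0.015 with that scaling). Summed over transcripts, OIP5-AS1 was at 22.2 ± 1.17 FPKM with DMAG and 21.1 ± 0.980 FPKM in controls, with overlapping groups. CDR1, the protein-coding entry opposite CDR1-AS, was listed at 0 in all 6 libraries, and CDR1-AS itself was not analysed here. hsa-miR-671-5p, which directs cutting of CDR1-AS and was chosen after its values were seen, was at 231, 232 and 252 CPM with DMAG, against 188, 160 and 204 CPM in controls (log2 change 0.37, edgeR adjusted p = 0.0093, and 0.14 by column totals alone).

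Genes reported as miR-7 targets in other cells were called in both directions. Of 33 listed, 27 were tested, and 5 were called higher, 8 lower and 14 not called; 6 lay below the level tested. The 5 higher are 18.5% of those tested, near the 22.4% of all genes, and the 8 lower are 29.6%, near 26.1%. The median log2 change was -0.02. With the most abundant transcript per gene in place of the sum, the split turned to 8 higher and 4 lower, with a median of 0.02. IRS2, an adaptor of insulin and IGF signalling, was at 17.7, 18.2 and 15.7 FPKM with DMAG, against 10.1, 9.27 and 9.35 FPKM in controls (log2 change 0.78, SE 0.0673, limma adjusted p = 3.0e-04), with no overlap between groups. OGT, the enzyme that attaches O-linked N-acetylglucosamine, was at 61.4 FPKM with DMAG and 50.5 in controls, and the transcription factor YY1 at 33.9 FPKM with DMAG and 28.1 in controls; both were called higher. PIK3CD, a catalytic subunit of PI3-kinase, was at 42.8 FPKM with DMAG and 36.1 in controls and called higher.

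Among listed targets called lower, the chromatin organiser SATB1 was at 13.3 FPKM with DMAG and 20.1 in controls (log2 change -0.56), and the mitochondrial channel VDAC1 at 62.4 FPKM with DMAG and 90.9 in controls (-0.53). PARP1, a DNA-damage enzyme, was at 90.4 FPKM with DMAG and 102.7 in controls (-0.18), and the kinase PAK1 at 6.52 FPKM with DMAG and 8.08 in controls (-0.27). Their limma adjusted p lay between 6.6e-04 and 0.0050, and the calls of SATB1 and PAK1 were lost with the most abundant transcript per gene. IGF1R was at 23.4 FPKM with DMAG and 37.5 in controls (-0.67, limma adjusted p = 0.0025), but its most abundant transcript did not differ beyond the spread (log2 change 0.02, adjusted p = 0.71). KLF4 was at 0.991 FPKM with DMAG and 0.619 in controls and was not called (limma adjusted p = 0.079). EGFR, the best-known target, was listed at 0 in 5 of 6 libraries, and IRS1 was at 0.176 FPKM with DMAG and 0.0887 in controls, below the level tested. Transcript levels do not measure translation, and seed sites were not searched.

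HNRNPK stood with those of its family that were not called. Of 27 hnRNP genes, HNRNPK included, all were tested, and 10 were called lower, 2 higher and 15 not called. These are 37.0% lower and 7.41% higher, against 26.1% and 22.4% of all genes tested, and the median log2 change was -0.17, against -0.01. HNRNPA3 was at 88.4, 90.4 and 89.0 FPKM with DMAG, against 123, 131 and 128 FPKM in controls (log2 change -0.51, limma adjusted p = 1.5e-04). HNRNPA0 was at 7.21 FPKM with DMAG and 10.6 in controls (-0.51) and SYNCRIP at 96.3 FPKM with DMAG and 111.6 in controls (-0.21), both called lower. PCBP1, a KH-domain relative of HNRNPK, was at 138.8 FPKM with DMAG and 173.8 in controls (log2 change -0.32, limma adjusted p = 4.7e-04). PCBP2, its close relative, was at 271 FPKM with DMAG and 297 in controls (-0.13, limma adjusted p = 0.017), though its most abundant transcript was not called (log2 change 0.01, adjusted p = 0.92). HNRNPH3 was called higher, at 85.4 FPKM with DMAG and 61.0 in controls (0.48, limma adjusted p = 6.9e-04), and HNRNPUL2 also, with a call that other settings removed (0.15, limma adjusted p = 0.046).

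**Figure D5:**
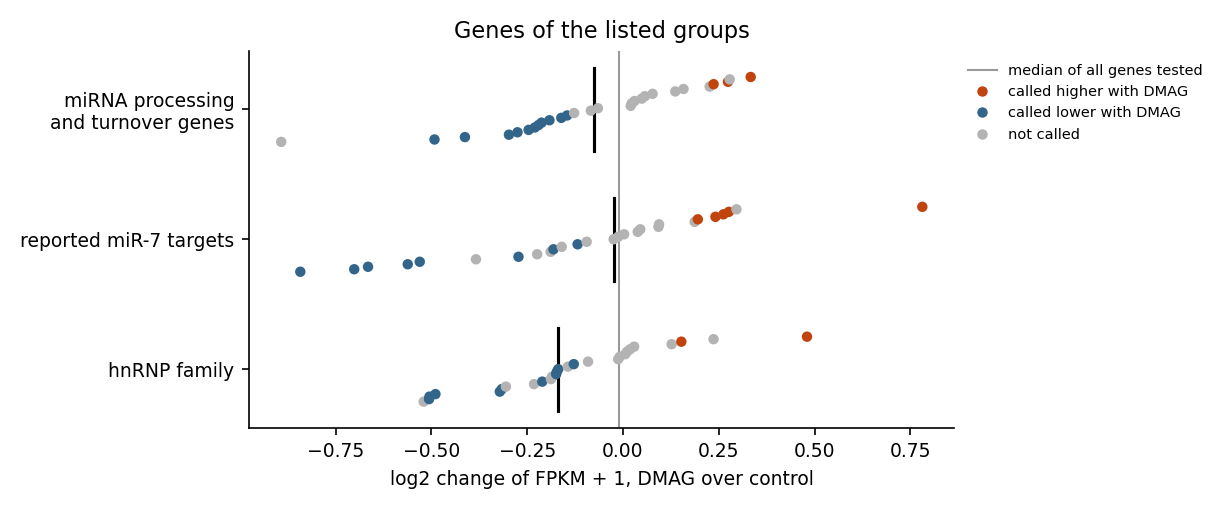
Log2 change of FPKM + 1, DMAG over control, for each tested gene of the 3 lists, spread vertically by rank, with black lines at list medians and a grey line at the median of all genes tested. List medians are -0.07, -0.02 and -0.17 from top to bottom, against -0.01 for all genes.

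The cells' markers did not all match the label. Of 12 erythroid and megakaryocyte genes known from HEL cells, 10 were below 1 FPKM on average in both groups. Their summed level was 0.569 to 577 FPKM with DMAG and 0.580 to 0.819 FPKM in controls, the highest value being that of DMAG replicate 3 through HBA1 and HBA2. Of 9 granulocyte and monocyte genes, 8 were at or above 1 FPKM, with sums of 2046 to 2221 FPKM with DMAG and 2543 to 2681 FPKM in controls. These genes did not move together. PRTN3 (227 FPKM with DMAG and 916 in controls), MPO (815 FPKM with DMAG and 1089 in controls), ELANE and CTSG had lower levels with DMAG, without overlap of the groups. LYZ (444 FPKM with DMAG and 168 in controls), CLC (523 FPKM with DMAG and 320 in controls), AZU1, ITGAM and CD14 had higher levels, also without overlap, 5 of the 9 in all. The share of all genes without overlap was not counted, so nothing is read from these counts. In the gene fit 48.6% of all tested genes were called. The part of these marker differences in the results above was not tested. Without DMAG replicate 3, HNRNPK was still not called.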

How the data were processed

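The authors deposited read counts and TPM per mature miRNA, of which the counts were used, and FPKM per transcript for mRNAs and annotated lncRNAs. Per the labels' protocols, RNA-Seq libraries were made from rRNA-depleted RNA with dUTP in the second strand, and small RNA libraries by ligating adapters. HISAT2 2.0.4, StringTie 1.3.3, Bowtie and the build GRCh38 are listed, without roles, in the submitters' processing notes. The RNA-Seq depth is unknown.

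Counts were tested with edgeR 4.0.16 (quasi-likelihood, TMM, filterByExpr minimum 10; R 4.3.3), with DESeq2 1.42.0 as an alternative. FPKM were tested with limma 3.58.1, as log2(FPKM + 1) of gene sums (mean of at least 0.5) and log2(FPKM + 0.1) of transcripts (mean of at least 0.5, for lncRNA 0.1). These scales understate changes of low genes. Benjamini-Hochberg adjustment ran over all features tested, with calls under 0.05. Steps were tested on simulated data.

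Members and lists were chosen with earlier results of these data known. Genes named were fixed names tied to miR-7, up to 4 called members with the smallest p per list and direction, and the 5 nearest to hsa-miR-7-5p and HNRNPK. DROSHA, DGCR8, DICER1, AGO1, AGO2, AGO3 and PRKRA were named for their roles after their values were seen. For likeness, miRNAs at 10 CPM or more (log2 of CPM + 1) and genes at 10 FPKM or more were candidates. Circular RNAs, whose identifiers carried no host gene, and unannotated lncRNAs were not analysed here. Sequences and loci are from RefSeq GRCh38.p14. Some listed genes are not reported here by name.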

Additional observations from a re-analysis of the deposited data

How the results depend on the processing

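hsa-miR-7-5p was lower under every alternative run, with log2 changes from -1.62 (column totals alone) to -1.22 (without control replicate 3), and hsa-miR-3529-3p from -1.65 to -1.24. hsa-miR-7-1-3p changed by -0.93 with column totals alone and by -0.77 to -0.63 when single libraries were left out. HNRNPK was not called under any (adjusted p 0.12 to 0.97). The count of genes called was 5050, and 3354 with the most abundant transcript per gene, where IGF1R (0.0243) and PCBP2 (0.0145) changed sign. The mRNA transcripts called were 2765, 1506 to 1901 without single libraries and 198 with the replicate block; the lncRNA transcripts called were 442, 206 to 330 and 254 in the same order. For OIP5-AS1, 2 transcripts were called at a mean of at least 0.5 FPKM, 0 with the replicate block and 0 whichever single library was left out. Of the neighbours 2 were called with no filter on low values. Some of the genes, transcripts and miRNAs named singly were followed under the alternatives. Of their values, 31 lost a call with the same sign, and 2 changed sign and lost theirs. Another 5 gained a call and 422 kept their side of the threshold, and the cause was not tested. Same-numbered libraries did not deviate together (correlations from -0.0123 to 0.0426), so the numbers were not taken as pairs. Counting each opposite pair once was chosen after seeing the data. The circular RNA comparisons and their alternatives were not run.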

Other observations

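In the 13 opposite-sequence pairs with near-equal counts, the less abundant partners held 5.50% to 5.67% of all miRNA counts with DMAG and 6.39% to 6.97% in controls, so column totals, and CPM by column total alone, carry them. In DMAG replicate 3, HBA1 was at 375 FPKM and HBA2 at 200 FPKM, against at most 0.0935 FPKM in the other libraries.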
